A study of Mus musculus with 6 samples.

Results

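The zebrin-stripe genes described here are Aldoc, Slc1a6, Plcb3, Gabbr2, Plcb4 and Ebf2, 6 of the 24537 genes listed for each cerebellum library. They were chosen by gene symbol, as genes known from mouse cerebellum to mark zebrin-positive or zebrin-negative Purkinje cells, and all 6 symbols were found in every library. RNA-seq had been made from the RNA of male cerebella, and the mice were 6 weeks old. The 3 HET libraries came from mice heterozygous for a Reln null allele, with the strain label Orl/BalbC. The 3 WT libraries came from wild-type mice with the strain label C57BL/6, so genotype and labelled strain cannot be told apart in any comparison. Levels are FPKM as deposited, the fragments counted for a gene, scaled by a gene length and by the size of the library. Whether that length was the exon length or the whole gene span could not be checked here. The order of levels between genes may therefore not be that of their transcripts. Whether each library stands for its own animal is not stated in the labels, so p-values measure the spread between these libraries only.

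Purkinje cells, the output neurons of the cerebellar cortex, are not all alike: they form parasagittal stripes that differ in gene expression. The stripes were first defined by the zebrin II antigen, which is aldolase C, the product of Aldoc. In the mouse, Slc1a6, Plcb3 and Gabbr2 products are enriched in zebrin-positive stripes, whereas Plcb4 product and Ebf2 mark zebrin-negative ones. Reelin, the secreted protein encoded by Reln, is needed for Purkinje cells to leave their embryonic clusters and spread into a single layer. Cerebellar tissue RNA is averaged over the stripes, so these libraries report the summed level of each stripe gene and not its position. In such bulk RNA, fewer cells of a type and less RNA per cell cannot be told apart.

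The HET libraries matched their label. Reln was at 0.531, 0.509 and 0.580 FPKM in HET replicates 1, 2 and 3, against 0.834, 0.771 and 0.940 FPKM in WT replicates 1, 2 and 3 (two-sided exact permutation p = 0.1, the smallest that 3 against 3 libraries allow). Purkinje cells were well represented: Pcp2, a defining Purkinje gene, stood at 162 to 167 FPKM in HET and at 122 to 175 FPKM in WT libraries, and Calb1 at 29.8 to 34.1 FPKM in HET and 24.2 to 33.0 FPKM in WT. The steps between low FPKM values placed the depth near 25.3, 27.2 and 22.8 M reads in HET replicates 1, 2 and 3 and near 28.2, 27.0 and 28.8 M reads in WT replicates 1, 2 and 3. At these depths 15.4% to 16.6% of the low values fell near whole reads, against a median of 7.1% to 7.5% over the depths tried. Most low values thus did not fall near whole reads. The depths, and the read counts and counting errors drawn from them, rest on exon lengths and are approximate. If the values were scaled by gene span instead, the reads would be undercounted and the counting errors too large. WT replicate 2 stood apart from the other libraries. Of the 6358 genes that averaged 1 FPKM or more, 78.4% had their lowest value in it.

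The sequence just before the transcription start differed widely among the stripe genes, and it is shown for 3 of them. These are Aldoc, with the highest FPKM, Slc1a6, a zebrin-positive gene, and Plcb4, a zebrin-negative one. The sequences are the 250 bases before the first RefSeq start (GRCm38.p6, the assembly also called mm10), written 5′ to 3′ on the strand of the gene. Capitals mark GGGCGG, the GC box, on either strand.
Aldoc, chr11:78322823-78323072, plus strand: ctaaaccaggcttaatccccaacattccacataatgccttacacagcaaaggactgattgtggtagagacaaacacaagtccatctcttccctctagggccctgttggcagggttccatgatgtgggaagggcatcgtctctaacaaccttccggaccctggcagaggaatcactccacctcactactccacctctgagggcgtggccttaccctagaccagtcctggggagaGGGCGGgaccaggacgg
Slc1a6, chr10:78780246-78780495, plus strand: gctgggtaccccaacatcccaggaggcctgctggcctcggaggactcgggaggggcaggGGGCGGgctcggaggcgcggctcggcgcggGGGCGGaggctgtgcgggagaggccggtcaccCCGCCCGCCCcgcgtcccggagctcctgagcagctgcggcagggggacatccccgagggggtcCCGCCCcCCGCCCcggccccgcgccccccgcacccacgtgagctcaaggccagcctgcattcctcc
Plcb4, chr2:135659297-135659546, plus strand: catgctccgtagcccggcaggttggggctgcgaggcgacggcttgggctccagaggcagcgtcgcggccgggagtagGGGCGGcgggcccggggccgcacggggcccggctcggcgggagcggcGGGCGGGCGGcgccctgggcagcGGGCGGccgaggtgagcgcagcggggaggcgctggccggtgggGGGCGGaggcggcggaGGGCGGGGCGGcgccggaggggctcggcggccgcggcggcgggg

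RefSeq promoters were matched for 5 of the 6 genes, Aldoc, Slc1a6, Plcb3, Gabbr2 and Plcb4. Of 32851 such promoter windows over all genes, 32.7% held GGGCGG on either strand, with overlapping matches counted separately. The window of Aldoc held 1 match, that of Slc1a6 held 6, Plcb3 held 5, Gabbr2 held 2 and the first Plcb4 start held 7. The G and C content was 55.2% for Aldoc, close to the median of 52.4% over all windows, and 85.2% for Plcb4, above 99.9% of them. Gabbr2 had 80.8%, Slc1a6 had 78.8% and Plcb3 had 64.4%. A second RefSeq start of Plcb4 (window chr2:135764588-135764837) had 42.8% and no GGGCGG. Plcb4 was the only zebrin-negative gene matched, so the stripe classes were not compared. The second start of Aldoc had 54.0%. The core motif of the EBF factors, CCCNNGGG (a palindrome, so the same on both strands), was present in 11.8% of all windows. Among the stripe genes it occurred once, in the window of Slc1a6, as CCCGAGGG at chr10:78780418-78780425 and 78 bases before the start. These are letter matches in a short window and not measured binding.

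The 6 genes spanned a wide range of levels. Aldoc, an enzyme of glycolysis, was among the genes with the highest FPKM in every library. It ranked between 5 and 10 from the top and took 0.509% to 0.651% of the summed FPKM. Plcb3 and Slc1a6 came next, with means of 2.90 ± 0.37 and 2.50 ± 0.44 FPKM over all libraries (SD, n = 6 each). Plcb4 averaged 0.818 ± 0.078 FPKM, Gabbr2 0.575 ± 0.058 FPKM and Ebf2 0.0690 ± 0.0115 FPKM (SD, n = 6 each). This order held within each of the 6 libraries. The Aldoc level was 109 to 143 times that of Plcb3. Plcb3 and Slc1a6 were the only neighbours in this order whose ranges overlapped, with a ratio of 1.01 to 1.27 within a library. The Plcb4 level was 1.38 to 1.49 times that of Gabbr2, so a zebrin-negative marker lay above a zebrin-positive one in FPKM. Plcb4, Gabbr2 and Ebf2, the lowest of the genes, also had the longest annotated spans. How far the order of levels follows gene length was not tested.

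**Figure D1:**
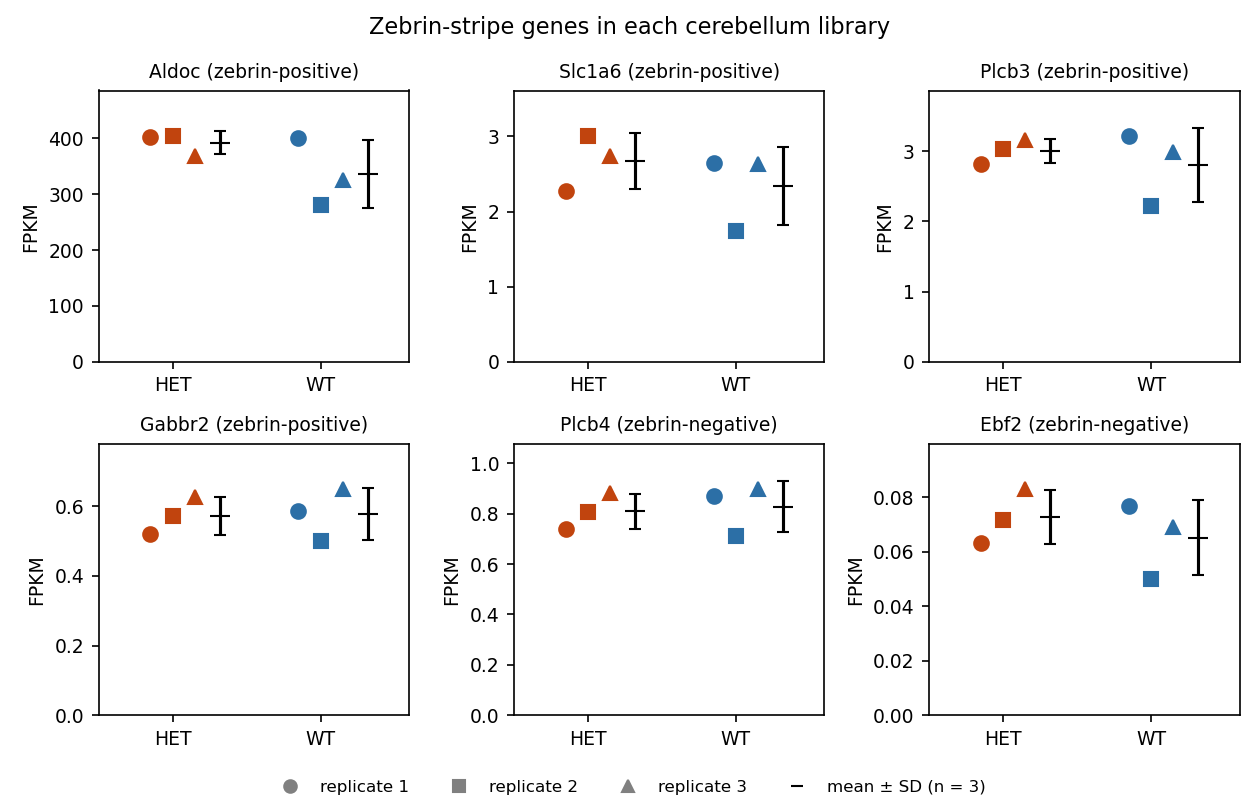
FPKM of the 6 zebrin-stripe genes (vertical axes, from 0, a separate scale for each gene) in the 3 HET and 3 WT libraries; symbols give the replicate number, and the black bar gives the mean ± SD of each group (n = 3). HET and WT values overlap for all 6 genes, and WT replicate 2 is the lowest library in each panel.

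The zebrin-positive genes were compared first between HET and WT cerebellum. Aldoc (ENSMUSG00000017390, chr11:78322968-78327781, plus strand), also expressed by astrocytes and Bergmann glia, had 403, 404 and 368 FPKM in HET replicates 1, 2 and 3, against 401, 280 and 326 FPKM in WT replicates 1, 2 and 3. WT replicate 1 lay with the HET libraries, so the groups overlapped. The means were 392 ± 21 FPKM in HET and 336 ± 61 FPKM in WT (SD, n = 3 each), a ratio of 1.17. On the scale of log2(FPKM + 1) the difference in means, HET minus WT, was 0.24 (SE 0.19, 95% interval -0.15 to 0.62, limma adjusted p = 0.90; two-sided exact permutation p = 0.2).

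Slc1a6 (ENSMUSG00000005357, chr10:78780496-78814765, plus strand) encodes EAAT4, the glutamate transporter of Purkinje cell dendrites and spines. It had 2.27, 3.01 and 2.74 FPKM in HET replicates 1, 2 and 3, against 2.65, 1.74 and 2.63 FPKM in WT replicates 1, 2 and 3. HET replicate 1 was lower than 2 of the WT libraries, and WT replicate 2 was the lowest of all. The difference on the log2 scale was 0.15 (SE 0.12, 95% interval -0.10 to 0.39, limma adjusted p = 0.90; exact permutation p = 0.5). About 95.2 to 166 reads stood behind each value if all came from the longest coding transcript, a counting error of 7.8% to 10.2%.

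Plcb3 (ENSMUSG00000024960, chr19:6952325-6976470, minus strand) encodes phospholipase C beta 3, which acts downstream of metabotropic glutamate receptor 1. It had 2.81, 3.03 and 3.16 FPKM in HET replicates 1, 2 and 3, against 3.22, 2.21 and 2.99 FPKM in WT replicates 1, 2 and 3. The highest and the lowest library were both WT. The difference on the log2 scale was 0.082 (SE 0.12, 95% interval -0.17 to 0.33, limma adjusted p = 0.90; exact permutation p = 0.8), next to the median of 0.083 over all genes tested. With median-of-ratios scaling, which evens out the typical level of the libraries, it was -0.0024. The 5′ end of the annotated Plcb3 span overlaps Ppp1r14b on the opposite strand (chr19:6974968-6977324). Whether the quantification used strand is not given in the sources used here, so reads there may have been assigned to either gene. The matched RefSeq start of Plcb3, at chr19:6969814, lies outside that overlap.

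Gabbr2 (ENSMUSG00000039809, chr4:46662305-46991873, minus strand) encodes the subunit of the GABA-B receptor that couples to G proteins. Its levels were 0.519, 0.571 and 0.626 FPKM in HET replicates 1, 2 and 3, against 0.586, 0.501 and 0.650 FPKM in WT replicates 1, 2 and 3. The groups lay on top of each other, with means of 0.572 ± 0.053 FPKM in HET and 0.579 ± 0.075 FPKM in WT (SD, n = 3 each). The ratio of the means was 0.988, and the exact permutation p was 0.9. With its longest coding transcript, about 75.6 to 108 reads would give a counting error of 9.6% to 11.5%.

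The zebrin-negative genes were low in FPKM. Plcb4 (ENSMUSG00000039943, chr2:135659011-136014593, plus strand) encodes phospholipase C beta 4, the isoform that takes the place of Plcb3 product in zebrin-negative Purkinje cells. It had 0.740, 0.808 and 0.880 FPKM in HET replicates 1, 2 and 3, against 0.872, 0.712 and 0.898 FPKM in WT replicates 1, 2 and 3. Both the highest and the lowest library were again WT. The means were 0.809 ± 0.070 FPKM in HET and 0.827 ± 0.101 FPKM in WT (SD, n = 3 each, exact permutation p = 0.9). With its longest coding transcript, about 97.8 to 135 reads would give a counting error of 8.6% to 10.1%.

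Ebf2 (ENSMUSG00000022053, chr14:67233292-67430918, plus strand) encodes a transcription factor of the early B cell factor family that represses zebrin-positive identity in the mouse. It had the lowest FPKM of the stripe genes, at 0.0634, 0.0719 and 0.0831 FPKM in HET replicates 1, 2 and 3, against 0.0768, 0.0501 and 0.0690 FPKM in WT replicates 1, 2 and 3. If scaled by the longest coding transcript, these values rest on about 7.0 to 11.3 reads per library, a counting error of 29.8% to 37.7%. That error exceeds the spread of either group, so the reads may be undercounted. The groups overlapped (exact permutation p = 0.5). Whether depth limited this comparison could not be checked. Antisense genes lie within its span, among them Gm6878 and 4930438E09Rik, so its reads could be shared with them.

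In the test over all genes, 3 of the 6 stripe genes reached the minimum mean of 1 FPKM, namely Aldoc, Slc1a6 and Plcb3. By limma 0 of these 3 passed an adjusted p of 0.05, against 0.0786% of all 6358 genes tested. For the unadjusted limma p, 0 of 3 were under 0.05 (0.22, 0.24 and 0.51), against 212 of the 6358. All 3 had a higher mean in HET, as did 83.1% of the genes tested. With the minimum lowered to 0.5 FPKM, Gabbr2 had a log2 difference of -0.0058 (95% interval -0.14 to 0.13, limma adjusted p = 0.99) and Plcb4 of -0.013 (95% interval -0.17 to 0.14, limma adjusted p = 0.98). In that fit 0% of 8619 genes passed, with 230 at an unadjusted p under 0.05. With no minimum, Ebf2 had a difference of 0.010 (95% interval -0.019 to 0.040, limma adjusted p = 0.97), where 0.00513% of 19511 genes passed. Adding 1 before the logarithm shrinks the differences of low genes, so these values cannot be set against that of Aldoc. As ratios of mean FPKM, HET over WT, the genes stood at 1.17 for Aldoc, 1.14 for Slc1a6, 1.07 for Plcb3, 0.988 for Gabbr2, 0.978 for Plcb4 and 1.12 for Ebf2. Groups overlapped for all 6, whereas 5.96% of the 19511 genes with any value above 0 had groups that did not.

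Each of the 6 genes had its lowest value in WT replicate 2, as did 78.4% of all genes tested. The highest library differed among them: HET replicate 2 for Aldoc and Slc1a6, HET replicate 3 for Ebf2, WT replicate 1 for Plcb3 and WT replicate 3 for Gabbr2 and Plcb4. After median-of-ratios scaling, WT replicate 2 was the lowest library for 4 of the 6, and HET replicate 2 was the lowest for Gabbr2 and Plcb4. As deposited, all 16 Purkinje cell markers that reached 1 FPKM on average also had their lowest value in WT replicate 2. Relative to the geometric mean of its own 6 libraries, WT replicate 2 was at -0.51 for Slc1a6, -0.44 for Ebf2, -0.38 for Plcb3, -0.36 for Aldoc, -0.20 for Plcb4 and -0.19 for Gabbr2 on the log2 scale of FPKM. The median of all genes was -0.25 there and that of the Purkinje cell markers -0.33. Plcb4 and Gabbr2 thus lay above the median of all genes in that library and the other 4 genes below it.

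**Figure D2:**
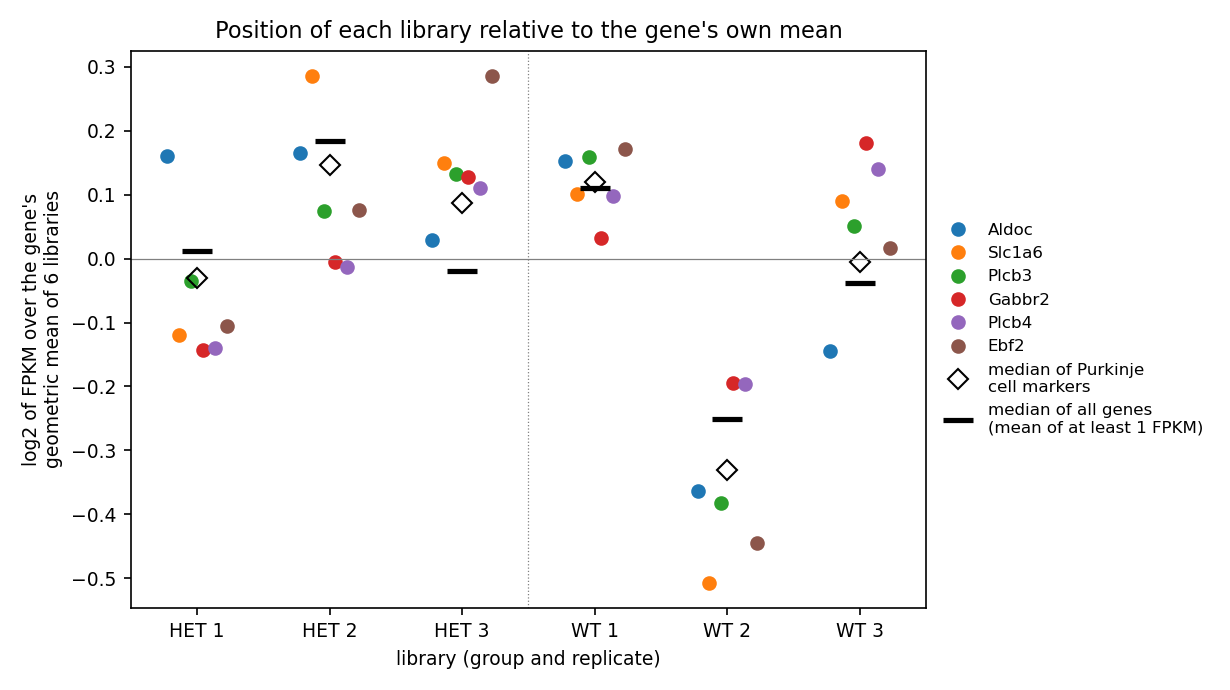
Log2 of FPKM over the geometric mean of the gene's 6 libraries (vertical axis) for each stripe gene, with the median of 16 Purkinje cell markers and the median of all genes that averaged 1 FPKM or more, by library. WT replicate 2 lies lowest for all 6 genes, from -0.51 for Slc1a6 to -0.19 for Gabbr2.

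Scaling and the choice of libraries changed the size of the differences, and the sign of all but that of Aldoc turned under at least 1 alternative. After median-of-ratios scaling, Aldoc was at 400, 356 and 372 scaled FPKM in HET replicates 1, 2 and 3 and at 371, 334 and 335 in WT replicates 1, 2 and 3. The groups still overlapped, and the log2 difference of Aldoc was 0.12. That of Slc1a6 was 0.065, that of Gabbr2 -0.047, that of Plcb4 -0.064 and that of Ebf2 0.0039 on the same scale. Groups overlapped for all 6 genes after scaling, where 8.98% of genes had groups that did not. Without WT replicate 2, the difference was 0.11 for Aldoc, 0.0087 for Slc1a6 and -0.036 for Plcb3. Without WT replicate 1 it was 0.37 for Aldoc, with an unadjusted limma p of 0.043 and an adjusted p of 0.33, the lowest adjusted p of this gene under any setting run. In that fit 929 of 6309 genes had an unadjusted limma p under 0.05.

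**Figure D3:**
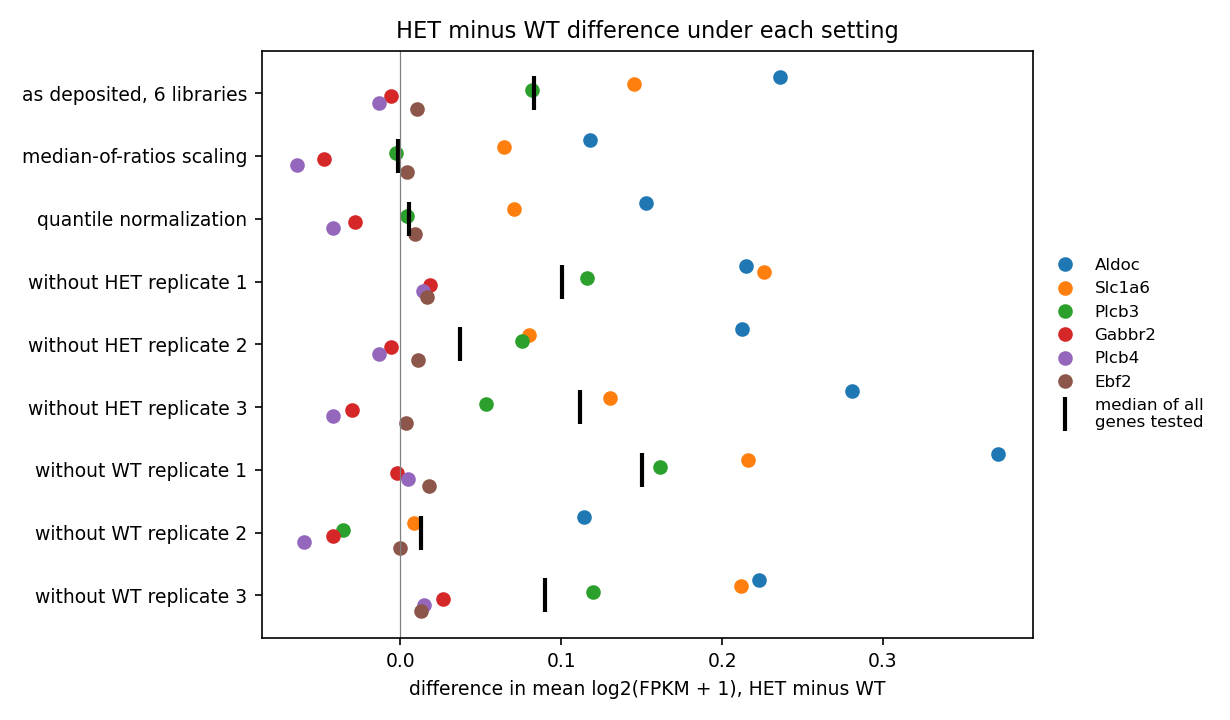
Difference in mean log2(FPKM + 1), HET minus WT (horizontal axis), of the 6 stripe genes under each scaling and with each library left out; the black mark is the median of all genes tested. Aldoc lies above the median of all genes in every setting shown; for Plcb3 the 2 nearly coincide with 6 libraries, at 0.082 and 0.083.

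Ratios within a library do not depend on the scaling of that library. The ratio of Aldoc to Plcb4, the products that define zebrin-positive and mark zebrin-negative cells, was 545, 501 and 418 in HET replicates 1, 2 and 3, against 460, 394 and 363 in WT replicates 1, 2 and 3. HET replicate 3 lay below WT replicate 1, so the groups overlapped. The ratio of Slc1a6 to Plcb4 was 3.07, 3.72 and 3.11 in HET replicates 1, 2 and 3, against 3.04, 2.44 and 2.92 in WT replicates 1, 2 and 3. These groups did not overlap, but the gap of 3.07 to 3.04 is smaller than the counting error of either gene as drawn from exon lengths. Of the 8 ratios of a zebrin-positive to a zebrin-negative gene, this was the 1 ratio without overlap. Over all genes, 4.31% of those that averaged 1 FPKM or more, and 5.87% of those with any value above 0, had a ratio to Plcb4 whose groups did not overlap. The ratio of Plcb3 to Plcb4 was 3.80, 3.76 and 3.59 in HET replicates 1, 2 and 3, against 3.69, 3.11 and 3.32 in WT replicates 1, 2 and 3, with overlap. The ratios to Ebf2 overlapped for each of the 4 zebrin-positive genes, where 5.17% of genes with any value above 0 did not overlap. No test was made of these ratios, which share Plcb4 or Ebf2 as denominator.

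Gabbr2 and Plcb4 had the most alike profiles of the 15 pairs. Their ratio was 0.701, 0.707 and 0.711 in HET replicates 1, 2 and 3, against 0.672, 0.704 and 0.723 in WT replicates 1, 2 and 3. The highest ratio was 1.08 times the lowest. That spread is below the counting error of either gene as drawn from exon lengths, so these errors may be too large. This pair was singled out after its values were seen. Among the 4506 other genes whose mean lay between 0.5 and 2 times that of Plcb4, 0.36% had a ratio to Plcb4 with as narrow a range. The pair joins a marker of zebrin-positive and a marker of zebrin-negative stripes.

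**Figure D4:**
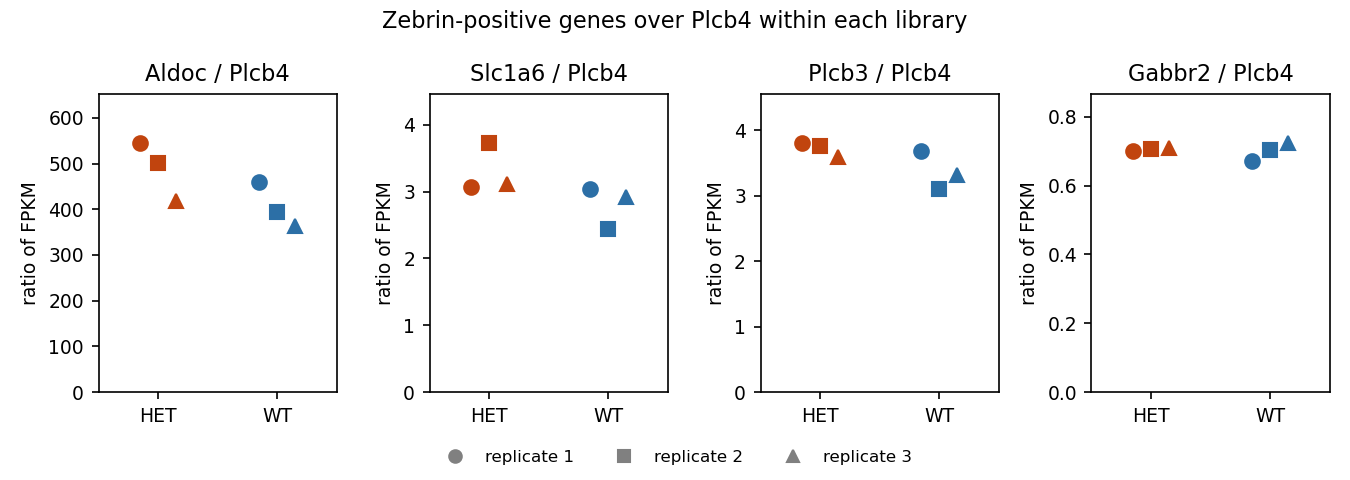
Ratio of FPKM of each zebrin-positive gene to that of the zebrin-negative gene Plcb4 (vertical axes, from 0) in each HET and WT library; symbols give the replicate number. The Slc1a6 ratio does not overlap between HET and WT, with 3.07 as the lowest HET and 3.04 as the highest WT value, and the Gabbr2 ratio stays between 0.672 and 0.723.

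The relatives of the stripe genes placed these levels in context. Of the phospholipase C beta family, Plcb3 had the highest FPKM and Plcb4 came next. The annotated span of Plcb4 is far longer than that of Plcb3, so this order may not be that of the transcripts. Plcb1 stood at 0.153 ± 0.016 FPKM in HET and 0.131 ± 0.010 FPKM in WT, and Plcb2 at 0.0316 ± 0.0169 FPKM in HET and 0.0216 ± 0.0062 FPKM in WT (SD, n = 3 each). Plcb1 had groups that did not overlap (exact permutation p = 0.1, the smallest possible here; 0.67 adjusted over 20 genes). Aldoa, the other abundant aldolase gene, stood at 209 ± 39 FPKM in HET and 180 ± 32 FPKM in WT (SD, n = 3 each). The Aldoc level was 1.61 to 2.10 times that of Aldoa within a library. The glial glutamate transporter genes exceeded the Purkinje cell transporter gene Slc1a6 in FPKM, a comparison that depends on the length used for each gene. Slc1a3 stood at 21.9 ± 2.4 FPKM in HET and 19.6 ± 3.1 FPKM in WT, and Slc1a2 at 8.70 ± 1.62 FPKM in HET and 7.84 ± 1.71 FPKM in WT (SD, n = 3 each). Gabbr1, the subunit that binds GABA, had 37.3 to 44.1 times the FPKM of its partner Gabbr2. Whether their transcripts differ as much could not be checked, since the length behind the values is not known. The other early B cell factor genes were also below 1 FPKM. Ebf1 lay above Ebf2 in every library, at 0.152 ± 0.020 FPKM in HET and 0.150 ± 0.026 FPKM in WT. Ebf3 was near the level of Ebf2, at 0.0765 ± 0.0176 FPKM in HET and 0.0813 ± 0.0099 FPKM in WT, and Ebf4 was lower, at 0.0271 ± 0.0023 FPKM in HET and 0.0349 ± 0.0065 FPKM in WT (SD, n = 3 each).

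The pathways around the stripe genes showed no called change either. Of 9 other genes reported as striped, 5 were tested by limma and 0 passed. These 5 had a higher mean in HET, as did 83.1% of all genes tested. Their median log2 difference was 0.11, against 0.083 over all genes. The log2 differences were 0.32 for Hspb1, 0.17 for Nptn, 0.061 for Kctd12 and 0.038 for Prkcd, the highest and lowest of the list. Hspb1, a small heat shock protein, was at 4.89 ± 1.99 FPKM in HET and 3.61 ± 1.18 FPKM in WT, and Kctd12, an auxiliary GABA-B receptor subunit, at 32.4 ± 2.8 FPKM in HET and 31.4 ± 6.5 FPKM in WT (SD, n = 3 each). Of 25 genes of the metabotropic glutamate receptor 1 and phospholipase C pathway, Plcb3 and Plcb4 included, 12 were tested and 0 passed in limma; means were higher in HET for 11 and lower for 1, with a median of 0.087. Homer3, a scaffold of these receptors, had a log2 difference of 0.18 (SE 0.17), and Car8, which damps calcium release in Purkinje cells, one of 0.15 (SE 0.15). Prkcd had a log2 difference of 0.038 (SE 0.11). Of 13 genes of the GABA-B receptor complex, 7 were tested and 0 passed; means were higher in HET for 6 and lower for 1, with a median of 0.063. The lower one was Kcnj9, a subunit of G protein-gated potassium channels, at -0.14 (SE 0.15). The G protein subunit genes Gnai2, Gnai1 and Gnao1 had 0.15, 0.12 and 0.014. Of 10 aldolase and glycolysis genes, Aldoc included, 7 were tested, 7 had a higher mean in HET and 0 passed, with a median of 0.16. The phosphofructokinase genes Pfkp and Pfkl had the lowest differences, 0.094 and 0.10. Aldoc also stayed close to the glycolytic gene Gapdh, with a ratio of 0.981 to 1.13 over the 6 libraries. Of 5 genes of the glutamate transporter family, Slc1a6 included, 3 were tested, 3 had a higher mean in HET and 0 passed, with a median of 0.15. None of the 6 genes listed for the early B cell factors and their partners reached the minimum for the test. Hspb1 was the only tested gene of these lists with an unadjusted limma p under 0.05. Over all 6358 genes tested, 212 had such a p.

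Markers of the cell types in the tissue were set beside the stripe genes. The 21 Purkinje cell markers summed to 424 to 448 FPKM in HET and to 334 to 450 FPKM in WT libraries. Of 16 tested, 14 had a higher mean in HET, with a median log2 difference of 0.14. The 15 markers of Bergmann glia and astrocytes, cells that also express Aldoc, summed to 277 to 349 FPKM in HET and to 218 to 320 FPKM in WT, and 14 of 15 had a higher mean in HET, with a median of 0.14. The 12 granule cell markers summed to 680 to 703 FPKM in HET and to 622 to 715 FPKM in WT, and 9 of 12 had a higher mean in HET, with a median of 0.077. WT replicate 2 had the lowest sum of all 3 lists, and none of their markers was at 0 in every library. The part of these cell types in the levels of Aldoc and the other stripe genes was not tested. Among the 5 stripe genes other than Ebf2, Plcb3 varied least against Calb1, with a ratio of 0.0889 to 0.0992 over the 6 libraries, and Gabbr2 varied most, at 0.0167 to 0.0213. The 7 choroid plexus markers, a sign of adjacent tissue, summed to 3.69, 164 and 7.10 FPKM in HET replicates 1, 2 and 3 and to 287, 0.829 and 158 FPKM in WT replicates 1, 2 and 3; their part in the results was likewise not tested.

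Genes with the most similar profile over the 6 libraries were found for 5 stripe genes, among genes with 0.5 to 2 times its mean level and by the root mean square difference of centred log2(FPKM + 1). For Aldoc they were Tuba1a (0.067), Tuba1b (0.068) and Gapdh (0.069), from 17 genes. For Slc1a6 they were Emc1 (0.023), Sqle (0.032) and Smim13 (0.036), from 3739 genes, and for Plcb3 they were Fbxo6 (0.0079), Vti1b (0.012) and Dnajb4 (0.022), from 3495 genes. For Gabbr2 they were Trio (0.0061), Faxc (0.0072) and Unc13c (0.0096), from 4201 genes, and for Plcb4 they were Zswim4 (0.0093), Peli3 (0.010) and Mbd4 (0.013), from 4506 genes. The median difference over the candidates was 0.10 for Aldoc, 0.13 for Slc1a6, 0.11 for Plcb3, 0.069 for Gabbr2 and 0.076 for Plcb4. Adding 1 before the logarithm shrinks these differences for low genes, so they cannot be compared between stripe genes. No stripe gene was among the 3 nearest genes of any of these 5 stripe genes.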

How the data were processed

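RNA-seq libraries of 6 cerebella were grouped as HET and WT by their titles. The authors deposited FPKM values, 1 library per file; the value column is headed rpkm per the file headers, equal to FPKM when reads are single-end. Per the labels' protocols, mitochondrial and ribosomal sequences were filtered out, 2 bases were trimmed from each read, reads were aligned to mm10 with TopHat2 and Bowtie 1, and genes were quantified with Cufflinks; Cuffdiff 2.1.1 served their own test, not used here. In HET replicate 2, 40 genes, none of them a stripe gene, held dates in place of values and were left out of tests.

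Genes that averaged 1 FPKM or more were tested on log2(FPKM + 1) with limma 3.58.1 (R 4.3.3, intensity trend, Benjamini-Hochberg adjustment over all genes tested); the fit was also tested on simulated data. Single genes were compared by two-sided exact permutation tests, in a family of 20 genes (the 6, Reln and 13 related or overlapping genes); the p-values printed are unadjusted, and the lowest Benjamini-Hochberg adjusted value of the family was 0.67. Depth was read from the steps of low FPKM values, using transcript lengths from GENCODE M21 (GRCm38). Counting errors cover sampling only, and reads behind a gene assume its longest coding transcript. The length by which the deposited values were scaled could not be checked. Gene positions are from GENCODE M21. The alternatives were other pseudocounts, minima, scalings, no trend, a replicate block and leaving libraries out. The genes, lists and named-gene rule (the 6 genes, their paralogs, the 2 highest and 2 lowest differences of each pathway list and the 3 most similar profiles) were chosen with earlier results of these data known; some genes named by the rule are not reported here. Other steps used numpy 2.4.6, scipy 1.17.1, pandas 2.3.3 and matplotlib 3.10.9 under Python 3.11.15.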

Additional observations from a re-analysis of the deposited data

How the results depend on the processing

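Of the 6 stripe genes, 0 passed an adjusted p of 0.05 under any of the settings in which limma tested them. The lowest adjusted p over these settings was 0.33 for Aldoc, 0.35 for Slc1a6 and 0.43 for Plcb3. The log2 difference of Aldoc kept its sign in all 15 alternatives. For Plcb3 it was -0.0024 with median-of-ratios scaling, and turned to -0.036 without WT replicate 2 and to -0.042 without HET replicate 2 and WT replicate 2, an alternative chosen after seeing the data. That last alternative also turned Slc1a6 to -0.057. With 1 library left out, the difference ran from 0.11 to 0.37 for Aldoc, from 0.0087 to 0.23 for Slc1a6, from -0.036 to 0.16 for Plcb3, from -0.042 to 0.026 for Gabbr2, from -0.060 to 0.015 for Plcb4 and from -0.00014 to 0.018 for Ebf2. The sign turned for Gabbr2 (0.019 without HET replicate 1, 0.026 without WT replicate 3), for Plcb4 (0.014 without HET replicate 1, 0.0048 without WT replicate 1, 0.015 without WT replicate 3) and for Ebf2 (-0.00014 without WT replicate 2). The cause was not tested.

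The count of genes past the threshold over all genes was 5. It was 0 with a minimum of 0.5 FPKM, after median-of-ratios scaling, after quantile normalization and without the intensity trend (230, 325, 344 and 203 genes at an unadjusted p under 0.05 in limma), and 1 when every gene was tested. The count was 5 to 62 with 1 library left out, 67 without HET replicate 2 and WT replicate 2, and 13 with the replicate block. The replicate numbers gave no sign of pairing the libraries. Deviations of HET and WT libraries of the same number correlated at -0.28, -0.52 and 0.14 for numbers 1, 2 and 3. None of the 6 libraries correlated best with its own number. HET replicate 3 was near a tie, at 0.145 with WT replicate 2 and 0.140 with WT replicate 3. Deviations from the mean of a small group depend on one another, so this check cannot decide the pairing. The block changed no call of a stripe gene. By reads drawn from exon lengths, depth limits Ebf2 most, at about 7.0 to 11.3 reads per library, a count that could not be checked.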
